A study of Mus musculus with 36 samples.

Results

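Accessible chromatin, mapped by ATAC-seq (a transposase inserts adapters where DNA is loosely packed), was followed at 8 cytotoxic effector genes of mouse CD4 T cells: Gzma, Gzmb, Gzmc, Gzmk, Prf1, Fasl, Nkg7 and Crtam. A peak (an accessible region) was assigned to one of them when its midpoint lay nearest to a protein-coding transcription start site (TSS) of that gene, or when it overlapped the gene itself. These were 78 of the 71509 peaks, namely 31 of Fasl, 14 of Gzmk, 10 of Gzmb, 7 of Prf1, 6 each of Gzma and Crtam, and 2 each of Gzmc and Nkg7. All 78 passed the filter on low counts in the fits reported here. Of them, 8 spanned the TSS, 12 lay in introns, 3 in exons, 25 upstream and 30 downstream. The 3 Gzmk peaks at -29794, -22169 and -16944 bp were included only because a Gzmk transcript spans them, since the nearest TSS was that of Esm1. A peak is named here by its gene and by the distance in bp of its midpoint from the canonical TSS, negative when upstream.

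The 36 libraries fell into 12 groups of 3. In the HP1α line, the knockout (KO) came from mice with a floxed Hp1a allele crossed to CMV-cre, which deletes the gene in all tissues, and wild-type (WT) mice were littermates. In the HP1γ line, the KO carried homozygous floxed Hp1g together with Cd4-cre, which deletes in T cells, and the WT carried the floxed allele without Cre. HP1α and HP1γ are chromatin proteins that bind methylated histone H3. In each line and genotype, naive cells were splenic CD4+ T cells with no or low CD44, enriched by negative selection. Tconv were the progeny of such cells, sorted as TCR Vβ6+ from the spleen of irradiated hosts 3 weeks after a graft of C57BL/6 and B6D2F1 bone marrow, either alone or with co-injected, ex vivo expanded WT Treg. Donor mice were 6 to 12 weeks old and sex-matched. No label says which libraries came from separate animals, so the p-values measure the spread between these libraries. Bulk accessibility cannot separate a change in the share of cells that have a region open from a change within each cell.

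Granzymes are serine proteases stored in secretory granules, and perforin, encoded by Prf1, forms the pores through which they reach the target cell. Nkg7 is a granule membrane protein involved in exocytosis, Fas ligand (Fasl) kills through the death receptor Fas, and Crtam is a surface receptor that marks CD4 T cells with cytotoxic potential. These genes are mostly associated with CD8 T cells and natural killer cells, but activated CD4 T cells can express them.

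Libraries held between 1.49 and 96.8 M reads in peaks (median 54.8), and the 78 peaks took 0.0817 to 0.135% of them. The shallowest were HP1α WT Tconv with Treg, at 1.49 to 12.7 M reads. The 3 HP1α libraries that the study left out of its tests (WT with Treg replicate 3, KO with Treg replicates 2 and 3) were left out of the main HP1α fit, which leaves 1 KO library with Treg, assumed to vary like the other groups. Results of a fit with all 18 HP1α libraries are given beside the Treg comparisons. All 5 CD4 T cell markers had a peak at their TSS, with a summed level of 353 to 1383 CPM (reads in a peak, scaled so that libraries of different depth can be compared). Cd4 alone stood at 511 to 730 CPM in HP1γ KO libraries, which carry Cd4-cre, and at 56.1 to 119 CPM in all others. The B cell markers Cd79a, Ms4a1 and Pax5, the myeloid markers Lyz2, Csf1r and Spi1, the NK cell markers Ncr1, Klrb1c and Klra8, and also Cd8a and Foxp3, had no peak within 1 kb of their TSS.

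The sequences below are those of regions on which the results turn, read from GRCm39 in the direction of the gene. They are the 300 bases before the TSS of the granzyme genes Gzma and Gzmb and of Prf1, and the 300 bases around the midpoint of 4 distal peaks: the Gzmk peak that gained most on activation, and the Gzma, Gzmb and Fasl peaks that differed without HP1γ. Capitals mark matches, on either strand, to the letters GGTGTGA (T-box), TGTGGTT (RUNX) or TGANTCA (AP-1), and no matches overlap in these windows.
Gzma before the TSS, chr13:113237525-113237824, minus strand, RUNX and AP-1: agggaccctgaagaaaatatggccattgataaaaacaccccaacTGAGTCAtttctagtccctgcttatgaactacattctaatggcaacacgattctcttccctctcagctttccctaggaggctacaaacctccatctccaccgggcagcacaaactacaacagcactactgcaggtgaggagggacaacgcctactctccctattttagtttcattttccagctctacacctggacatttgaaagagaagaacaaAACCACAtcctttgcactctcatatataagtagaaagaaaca
Gzmb before the TSS, chr14:56499718-56500017, minus strand, RUNX and AP-1: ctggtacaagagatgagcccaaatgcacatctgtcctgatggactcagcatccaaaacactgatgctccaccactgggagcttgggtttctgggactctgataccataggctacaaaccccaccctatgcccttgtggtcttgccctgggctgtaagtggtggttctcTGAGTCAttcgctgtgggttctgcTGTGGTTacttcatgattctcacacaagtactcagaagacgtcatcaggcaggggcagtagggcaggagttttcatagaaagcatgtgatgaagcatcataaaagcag
Prf1 before the TSS, chr10:61133246-61133545, plus strand, no match: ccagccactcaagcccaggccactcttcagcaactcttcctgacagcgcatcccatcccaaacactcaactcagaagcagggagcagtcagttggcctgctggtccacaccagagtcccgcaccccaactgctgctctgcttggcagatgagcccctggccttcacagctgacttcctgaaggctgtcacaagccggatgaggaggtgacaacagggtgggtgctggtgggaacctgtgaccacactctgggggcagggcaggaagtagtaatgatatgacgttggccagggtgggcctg
Gzmb -3963, chr14:56503531-56503830, minus strand, RUNX and AP-1: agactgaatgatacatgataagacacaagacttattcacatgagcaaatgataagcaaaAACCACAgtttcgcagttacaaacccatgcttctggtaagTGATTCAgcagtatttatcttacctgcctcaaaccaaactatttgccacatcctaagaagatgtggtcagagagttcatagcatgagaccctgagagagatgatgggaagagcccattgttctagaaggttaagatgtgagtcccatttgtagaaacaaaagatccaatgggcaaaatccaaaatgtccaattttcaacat
Gzmk -2504, chr13:113319786-113320085, minus strand, no match: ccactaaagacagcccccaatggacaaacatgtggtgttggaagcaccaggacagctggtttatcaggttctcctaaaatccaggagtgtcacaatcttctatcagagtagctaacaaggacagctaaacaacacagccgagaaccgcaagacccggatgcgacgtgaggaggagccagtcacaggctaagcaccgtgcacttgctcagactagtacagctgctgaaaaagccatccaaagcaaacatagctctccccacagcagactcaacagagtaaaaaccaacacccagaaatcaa
Gzma +10194, chr13:113227181-113227480, minus strand, no match: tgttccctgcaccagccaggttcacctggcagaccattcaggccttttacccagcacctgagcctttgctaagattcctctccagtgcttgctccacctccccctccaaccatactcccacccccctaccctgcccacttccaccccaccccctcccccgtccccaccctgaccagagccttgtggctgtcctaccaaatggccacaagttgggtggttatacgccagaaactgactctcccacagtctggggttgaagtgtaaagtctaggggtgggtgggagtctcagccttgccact
Fasl -12985, chr1:161628911-161629210, minus strand, no match: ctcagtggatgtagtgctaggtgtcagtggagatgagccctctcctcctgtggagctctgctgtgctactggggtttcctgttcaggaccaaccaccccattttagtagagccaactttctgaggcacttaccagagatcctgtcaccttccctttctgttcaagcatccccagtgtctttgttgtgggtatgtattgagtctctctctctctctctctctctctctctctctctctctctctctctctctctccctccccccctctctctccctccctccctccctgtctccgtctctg

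In the 300 bases before the TSS, the T-box letters were found in 3 of the 8 genes (Crtam, Gzmk and Nkg7), against 3.97% of 21580 protein-coding promoters. The RUNX letters were found in 5 (Crtam, Gzma, Gzmb, Gzmc and Nkg7), against 4.96%, and the AP-1 letters in 2 (Gzma and Gzmb), against 7.35%. Around the midpoints of the 78 peaks, the 300-base windows held the T-box letters in 4 (5.13%, against 5.58% of all peaks), the RUNX letters in 8 (10.3%, against 12.9%) and the AP-1 letters in 13 (16.7%, against 13%). A match is a description of letters and does not show binding.

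Gzma (chr13:113230355-113237524) and Gzmk (chr13:113308142-113362442) are neighbours, and so are Gzmb (chr14:56496295-56499717) and Gzmc (chr14:56468857-56479211), whose paralogs share sequence, so that values there are less certain. Fasl lies at chr1:161608258-161616075, Prf1 at chr10:61133546-61140461, Nkg7 at chr7:43086497-43087678 and Crtam at chr9:40880987-40915924. The peak at the Nkg7 TSS also spans the start of Cldnd2.

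In naive cells, the promoters of Prf1 and Fasl were already open while those of Gzmb, Nkg7 and Gzmk were nearly closed. Per kilobase of peak, the level at the Prf1 promoter was 19.6 to 24.7 CPM per kb (means of the 4 naive groups) and at the Fasl promoter 15.4 to 17.1, whereas at the Gzmk promoter it was 0.078 to 0.43. In all 4 naive groups the order was Prf1, Fasl, Crtam, Gzma, Gzmc, Gzmb, Nkg7 and Gzmk. In WT Tconv the Nkg7 promoter came first, at 13.5 ± 2.2 CPM per kb in the HP1α line and 24.6 ± 6.0 in the HP1γ line (SD, n = 3). Fasl stood at 12.1 ± 3.0 and 18.7 ± 3.2, and Gzmb at 9.86 ± 3.01 and 21.6 ± 1.4. In the HP1α line, each promoter overlapped the next in the order of the means, so that neighbours did not differ beyond their spread, while in the HP1γ line Fasl (18.7) and Prf1 (10.6 ± 2.0) did not overlap, nor did Gzma (8.15 ± 0.62) and Gzmk (5.63 ± 0.79).

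**Figure D1:**
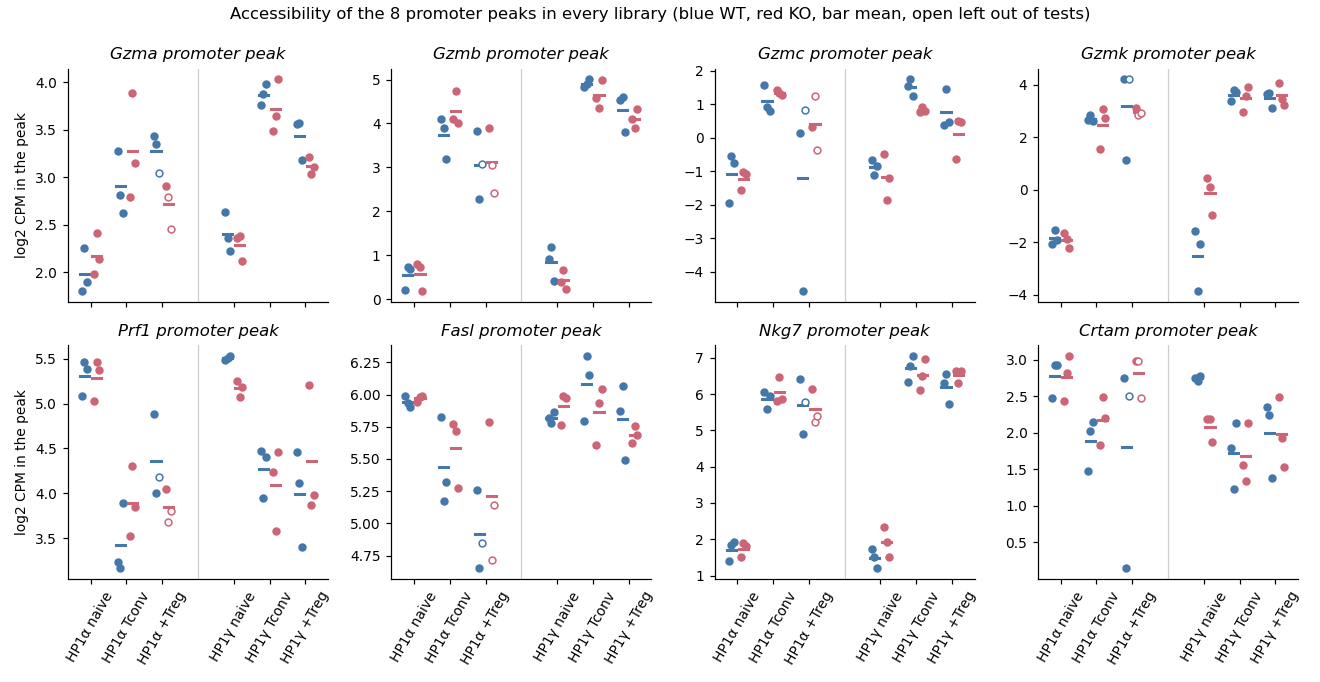
Log2 CPM (prior count 2) at the promoter peak of each gene in each of the 36 libraries, with naive cells, Tconv and Tconv with Treg of the HP1α line on the left and of the HP1γ line on the right. Points are libraries (open where left out of the tests), bars are means over the 3 libraries, and each panel has its own scale. The promoters of Gzmb, Gzmk and Nkg7 lie higher in every Tconv library than in every naive library, and the Prf1 promoter lies lower in every Tconv library without Treg than in every naive library.

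The comparison of Tconv with naive cells, called activation here, asked which of these regions differ between them. Tconv and naive cells also differed in sorting by TCR Vβ6 and in time spent in irradiated hosts. These cannot be told apart from activation. In WT cells of the HP1α line, 35 of the 78 peaks were called higher (24.9% of all peaks were) and 9 lower (17.5% of all peaks). A peak was called when its adjusted p (edgeR quasi-likelihood test, Benjamini-Hochberg over all peaks) was under 0.05 and its absolute log2 fold change over 1. The same comparison called 41 higher and 6 lower in WT cells of the HP1γ line (24.5% and 22% of all peaks), 37 and 6 in HP1α KO cells (23.5% and 19%), and 40 and 7 in HP1γ KO cells (22.4% and 20.6%). The median log2 fold change of the 78 peaks was 0.90 in HP1α-line WT and 1.38 in HP1γ-line WT cells, against -0.03 and 0.08 over all peaks. The 4 comparisons use separate libraries. Of the calls, 37 of 44, 45 of 47, 39 of 43 and 42 of 47 (in the order above) held under every alternative that was run. In all 4, 34 of the 78 peaks were called higher (17.7% of all peaks) and 4 lower (14.6%). In none of the 4, 26 were called (45% of all peaks), and 0 were called in opposite directions (0.0224%). Of the WT calls, 34 higher peaks were shared, 97.1% of those in the HP1α line and 82.9% of those in the HP1γ line, against 86.2% and 87.8% of the higher calls over all peaks. Of the lower WT calls, 5 were shared, 55.6% of those in the HP1α line and 83.3% of those in the HP1γ line. Over all peaks, 93.3% and 74.5% of the lower calls were.

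Markers of other cells differed with activation too. The Cd8b1 peak, the only one of 2 CD8 markers with a TSS peak, stood at 29.5 to 35.9 CPM in naive libraries and 2.66 to 8.67 in Tconv. Ikzf2, the only one of 2 Treg markers with a TSS peak, stood at 47.5 to 78.8 and 29.3 to 56.4 CPM. Klre1, the only one of 4 NK markers with a TSS peak, stood at 0.0977 to 0.635 CPM in naive libraries and 0.651 to 2.99 in Tconv. The naive T cell markers Ccr7, Lef1 and Tcf7 were each higher in every naive group than in every Tconv group, with 336 to 472 CPM in naive and 103 to 144 in Tconv libraries at Ccr7, and 363 to 517 and 271 to 374 at Tcf7. Their part in the results was not tested.

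Gzmk, a granzyme of memory-like T cells, held the peak with the largest rise in WT cells of both lines. Of its 14 peaks, 12 rose in all 4 comparisons and the other 2 in some of them. In its intron, Gzmk -2504 (sequence above) stood at 0.326, 0.236 and 0.265 CPM in HP1α-line WT naive libraries and 34.1, 27.9 and 38.5 in Tconv, a log2 fold change of 6.99 ± 0.32 (SE; edgeR adjusted p = 6.56e-11). In the HP1γ line it went from 0.448, 0.149 and 0.269 CPM to 49.4, 51.3 and 51.7 (7.55 ± 0.25). No library overlapped between naive cells and Tconv. In KO cells the same peak rose by 6.71 (HP1α) and 5.66 (HP1γ). At the promoter, Gzmk +476 rose by 4.73 ± 0.53 in HP1α-line and 6.25 ± 0.47 in HP1γ-line WT cells. Peaks farther away rose as well, with 4.5 and 4.52 at Gzmk +11506 downstream, 4.82 and 5.06 at Gzmk -40744, 3.43 and 4.83 at Gzmk -46184, 4.0 and 4.73 at Gzmk -22169, and 2.31 and 2.75 at Gzmk -76459. The level of Gzmk -40744 in naive cells rests on at most 12 reads in a library.

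Gzma, a granzyme that cleaves after basic residues, rose at all 6 of its peaks in all 4 comparisons. Its promoter peak, Gzma -411, held 6.18, 5.09 and 4.62 CPM in HP1γ-line WT naive libraries and 13.5, 14.6 and 15.7 in Tconv, a rise of 1.53 ± 0.16, and of 1.12 ± 0.28 in the HP1α line. This promoter was the least changed of the 6, and its call was lost without WT Tconv replicate 1 in the HP1α line (0.86, adjusted p = 0.0837) and without KO Tconv replicate 2 in HP1α KO cells (0.86). Upstream, Gzma -3931 rose by 5.64 and 6.18 in the HP1α and HP1γ lines, from 6, 0 and 11 and from 22, 6 and 4 reads in WT naive libraries, and Gzma -19606 by 3.68 and 4.35. Downstream, Gzma +10194 rose by 4.29 and 5.77, and Gzma +13119 by 4.64 and 5.69. The intronic Gzma +1244 rose by 2.65 in the HP1α line from few reads (3, 8 and 5 in WT naive libraries), and was not called there with loess offsets (adjusted p = 0.111). In the HP1γ line it was called higher from 4, 2 and 2 reads in WT naive libraries, so no fold is given.

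Gzmb, the granzyme that cleaves after aspartate, rose at its promoter and next to it, and 4 of its 10 peaks were called in none of the 4 comparisons. The promoter peak Gzmb -38 went from 1.85, 2.23 and 1.29 CPM to 28.2, 29.7 and 32.1 in HP1γ-line WT cells (4.14 ± 0.24, edgeR adjusted p = 3.29e-11) and from 1.11, 1.63 and 1.58 to 17.3, 14.8 and 9.1 in the HP1α line (3.42 ± 0.28). Both lines show naive and Tconv libraries well apart. Gzmb -3963, whose sequence holds RUNX and AP-1 letters, rose by 4.64 and 4.59, from 0, 10 and 4 and from 7, 7 and 5 reads in WT naive libraries. The exonic Gzmb +1482 rose by 3.78 in the HP1α line. In the HP1γ line it was called higher too, but WT naive libraries held only 3, 3 and 1 reads, so no fold is given. Gzmb -13823 was not called (-0.52 and 0.18). The promoter of Gzmc, a granzyme of the same cluster, rose by 2.37 ± 0.31 and 2.56 ± 0.29, and its other peak was called in no comparison.

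Prf1 went against the granzymes at its promoter. Prf1 -246 fell from 33.9, 44.1 and 41.7 CPM in naive to 9.33, 8.94 and 14.8 in Tconv libraries of HP1α-line WT cells (-1.98 ± 0.22), and from 44.9, 45.3 and 46.2 to 22.2, 15.3 and 21.2 in the HP1γ line (-1.15 ± 0.25, and -0.99 and not called without WT Tconv replicate 2). In HP1γ KO cells it missed the fold threshold (-0.93 ± 0.28) and passed it with DESeq2 and without KO Tconv replicate 3 (-1.14). Among the other Prf1 peaks, Prf1 +8644 fell by 2.08 and 1.68 on the log2 scale in WT cells of the HP1α and HP1γ lines, and Prf1 +38809 by 1.84 and 1.91. The intronic Prf1 +3469 fell by 1.53 in HP1α-line WT cells but was not called in HP1γ-line WT cells (-0.94), except with library size alone and without WT Tconv replicate 1 or WT naive replicate 2. Farther downstream, Prf1 +30314 rose by 2.09 and 3.73, and Prf1 +36929 by 3.44 and 3.17. The latter rests on few reads in the HP1α line, with 6, 9 and 6 in WT naive and 79, 29 and 2 in WT Tconv libraries. WT naive libraries of the HP1γ line held 16, 10 and 14 reads there. In the HP1α line Prf1 +30314 was not called without WT Tconv replicate 2 (1.47, adjusted p = 0.131) or WT naive replicate 2 (adjusted p = 0.0526). The gene thus held 2 peaks that rose and 2 that fell in all 4 comparisons.

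Both Nkg7 peaks rose in all 4 comparisons. The promoter peak, Nkg7 +808, went from 2.59, 3.51 and 3.74 to 66.9, 48.3 and 61.4 CPM in HP1α-line WT cells (4.19 ± 0.26) and from 3.29, 2.8 and 2.27 to 80.2, 109 and 132 in the HP1γ line (5.34 ± 0.30). Nkg7 -2157 rose by 3.06 and 5.61, from 9, 15 and 10 reads in HP1α-line and 11, 5 and 2 in HP1γ-line WT naive libraries.

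The Fasl promoter was not called, while regions around it were. Fasl +1175 was at 63.5, 61.1 and 59.9 CPM in HP1α-line WT naive libraries and 56.6, 36.1 and 39.96 in Tconv (-0.36 ± 0.16, edgeR adjusted p = 0.0556), and the difference was 0.33 ± 0.13 in the HP1γ line (adjusted p = 0.0336, under the fold threshold). Of the 31 Fasl peaks, 7 rose and 2 fell in all 4 comparisons and 17 were called in none. Fasl -3515 rose by 3.73 ± 0.38 and 4.18 ± 0.27, Fasl +94970 by 3.47 and 3.49, Fasl +11115 by 2.55 and 3.24, and Fasl +113805 by 3.29 and 3.79. The peaks that fell in all 4 comparisons were Fasl -12985, by 1.27 and 1.19 in WT cells, and Fasl +127390, by 1.81 and 3.15. In the HP1α line the latter was -0.90 without WT Tconv replicate 1 (adjusted p = 0.0227) and no longer called. Fasl +9230 and Fasl +117545 fell by 1.01 and 1.05 in HP1α-line WT cells and were not called in HP1γ-line WT cells (-0.26 and -0.85), although Fasl +117545 was called lower in HP1γ KO cells (-1.07) and, without WT Tconv replicate 1, in HP1γ-line WT cells too. Both HP1α-line calls were lost with loess offsets, with library size alone and without WT Tconv replicate 2 or WT naive replicate 1.

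Crtam moved in both directions. Its promoter peak, Crtam +159, fell by 1.08 in HP1α-line WT cells (5.55, 7.6 and 7.59 CPM in naive and 2.75, 4.04 and 4.41 in Tconv libraries) and was not called in the HP1γ line (-0.93 ± 0.23). It lay at the fold threshold, and in the HP1α line it was not called with DESeq2 (-0.86), loess offsets, library size alone, the replicate block, the earlier edgeR dispersions or without WT Tconv replicate 1 (-0.65, adjusted p = 0.142). In the HP1γ line it was called with library size alone and without WT Tconv replicate 3 (-1.16) or WT naive replicate 2 (-1.01). Crtam +10229, in an exon, rose by 1.95 ± 0.38 and 2.85 ± 0.48, and 4 of the 6 Crtam peaks were called in none of the 4 comparisons.

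**Figure D2:**
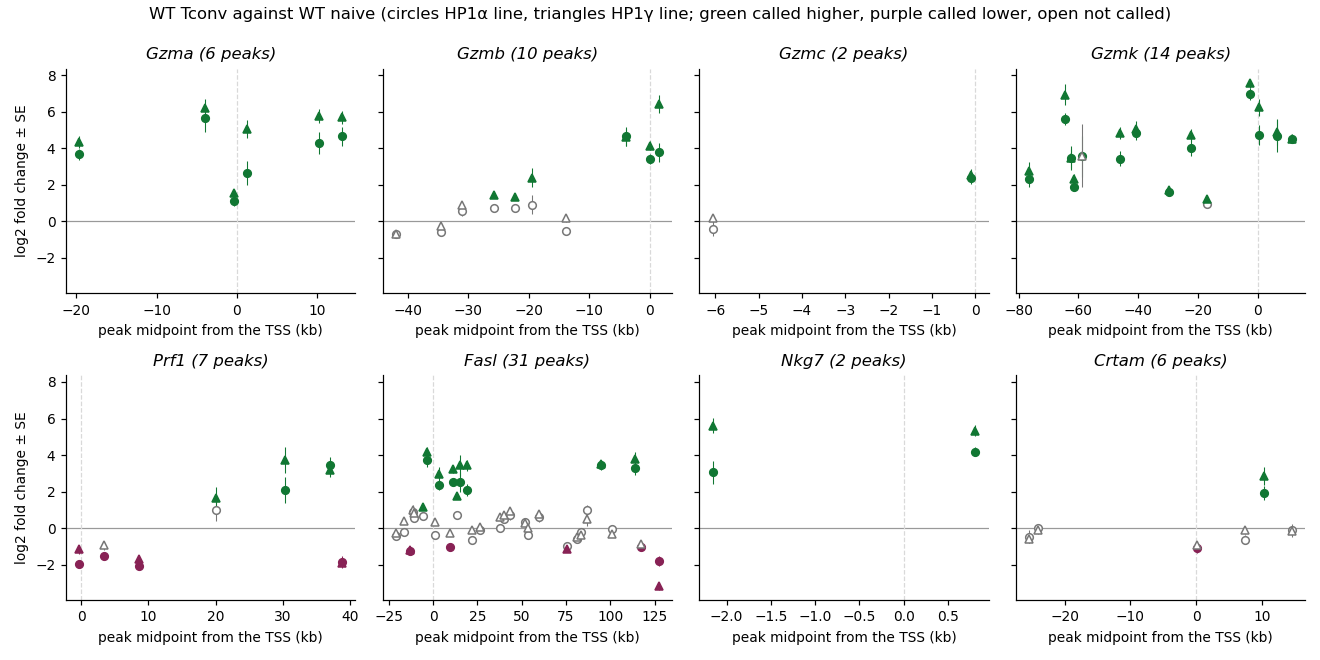
Log2 fold change of WT Tconv against WT naive cells (y axis, ± SE) for each of the 78 peaks, by the distance of its midpoint from the TSS in kb (x axis), with circles for the HP1α line and triangles for the HP1γ line. Green marks peaks called higher, purple called lower and open symbols not called: all Gzma and Nkg7 peaks rose, whereas the Prf1 promoter fell and its peaks at +30314 and +36929 bp rose.

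Genes that act with these effectors were counted from 3 lists, against 24.9% of all peaks that rose and 17.5% that fell in HP1α-line WT cells, and 24.5% and 22% in HP1γ-line WT cells. Of 6 peaks near other genes of the granzyme clusters, 3 rose in WT cells of each line (3 of the 9 genes had a peak), among them the promoter of the mast cell chymase Cma1 (4.28 and 4.98). Of 64 peaks of genes for granule formation, release and self-protection, 25 rose and 4 fell in HP1α-line WT cells, and 29 and 5 in HP1γ-line WT cells. Its promoters included Ctsw, a lymphocyte cathepsin, at 1.05 and 1.38. Of 167 peaks of 8 transcription factors known to act on cytotoxic genes, 107 rose and 9 fell in HP1α-line WT cells and 112 and 9 in the HP1γ line. The promoters of Tbx21 (T-bet; 2.69 and 3.35), Bhlhe40 (2.46 and 3.01), Hopx (1.28 and 1.74) and Zfp683 (Hobit; 1.25 and 2.16) rose in both.

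Loss of HP1α was compared with WT in each condition. In naive cells 0 of the 78 peaks were called by edgeR (0.00559% of all peaks), 0 had an unadjusted p under 0.05 (1.17% of all peaks) and DESeq2 called 0 (0.00979%). The peaks' median log2 fold change was 0.03, against 0.001 over all peaks. In Tconv without Treg, 1 of 78 was called (0.021% of all peaks). This was Gzmk -40744, which was lower in KO: WT libraries held 2.93, 2.47 and 1.99 CPM and KO libraries 0.977, 1.3 and 1.03, a log2 fold change of -1.31 ± 0.23 (adjusted p = 0.0302). The groups did not overlap, but the call was lost with DESeq2, with loess offsets (adjusted p = 0.474), with the replicate block (0.0631), with the earlier edgeR dispersions (0.995) and without any one of WT replicates 1 and 2 and KO replicates 2 and 3 (adjusted p 0.0517 to 0.194). Over the 78 peaks, 9 had an unadjusted p under 0.05, 4 of them higher and 5 lower in KO (4.82% of all peaks had such a p). Among Gzma peaks, 6 of 6 had a value above 0 in KO Tconv (0.01 to 0.67), and 0 of them had an unadjusted p under 0.05.

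With Treg, HP1α KO and WT Tconv differed at 0 of the 78 peaks by edgeR (1.63% of all peaks were called). The unadjusted p was under 0.05 at 13 peaks, 7 higher and 6 lower (16.3% of all peaks), and DESeq2 called 3 (3.68% of all peaks). The count over all peaks was not stable, with 1168 called in the fit used here, 41 with depth as a covariate and 0 with the compared groups alone. With all libraries, edgeR again called 0 of the 78 (0.741% of all peaks), 11 had an unadjusted p under 0.05 (11.5%) and DESeq2 called 0 (1.11%). All 14 Gzmk peaks had values below 0 in both fits, with a median of -0.70 in the main fit and -0.58 with all libraries, against -0.11 and -0.07 over all peaks. At Gzmk -22169, WT libraries held 12.8, 6.42 and 8.85 CPM and KO libraries 4.02, 4.35 and 6.51 (-1.56 ± 0.45, adjusted p = 0.089), so that WT replicate 1 stood above the rest. With all libraries but that one, 8 of the 14 Gzmk peaks lay above 0 and 6 below, with a median of 0.10. In the main fit its removal leaves a single WT library, with 4 reads at Gzmk +476 and 2 at Gzmk -76459, and no value is given. Of the 31 Fasl peaks, 20 were above 0, none of them called. Fasl -12985 held 1.88, 1.07 and 4.32 CPM in WT and 6.0, 2.71 and 5.06 in KO libraries (1.76 ± 0.52, adjusted p = 0.092), and DESeq2 called it, Fasl +9230 and Fasl +81325 higher in KO. Of the markers with a peak, Tcf7 (261 to 308 CPM in KO and 172 to 212 in WT) and Cd5 (131 to 164 and 83.4 to 126) were higher in KO without overlap, and the other markers overlapped. Their part was not tested. The last of each 3 WT values and the last 2 of each 3 KO values are from libraries outside the main fit.

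Loss of HP1γ in naive cells left the 78 peaks uncalled by edgeR (0; 0.14% of all peaks were called), with 11 at an unadjusted p under 0.05, 9 of them higher (8.98% of all peaks). Here the tools parted, over all peaks too. DESeq2 called 10 of the 78 peaks, all of Gzmk and all higher in KO (3.27% of all peaks), and an earlier version of the edgeR dispersion estimate 4, also of Gzmk (0.583% of all peaks). In 10 of the 14 Gzmk peaks every KO library lay above every WT library, as in 22 of the 78 peaks and 14.1% of all peaks. Every KO library lay below every WT library in 8 of the 78 (14% of all peaks), 0 of them of Gzmk. Gzmk -2504 held 0.448, 0.149 and 0.269 CPM in WT (29, 11 and 22 reads) and 1.46, 1.3 and 0.627 in KO (46, 39 and 46 reads), a log2 fold change of 1.81 ± 0.63 (edgeR adjusted p = 0.349, DESeq2 adjusted p = 1.60e-06). The promoter peak Gzmk +476 held 0.294, 0.0271 and 0.195 CPM in WT and 1.33, 1.04 and 0.477 in KO (2.27 ± 0.98, adjusted p = 0.499). These levels were far below those of Tconv given above. In 2 of the 14 peaks, Gzmk -58614 and Gzmk +6551, no WT naive library held more than 3 reads, and no fold is given. Summed over its 14 peaks, Gzmk stood at 25.2 ± 3.3 CPM in WT and 36.4 ± 7.0 in KO naive cells (SD, n = 3), against 214 ± 19 in WT and 236 ± 46 in KO Tconv. In the HP1α line the naive sums were 25.5 ± 0.6 in WT and 25.9 ± 1.3 in KO.

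The HP1γ KO naive libraries differed in depth, with 33.9, 32.4 and 82.4 M reads in peaks against 70.5 to 90.3 M reads in WT, and the deepest had the lowest Gzmk -2504 level of the 3. The NK marker Klre1 was at 0.341 to 0.635 CPM in KO and 0.0977 to 0.386 in WT naive libraries, the Treg marker Ikzf2 at 67.0 to 78.8 and 47.5 to 56.8, and Cd8b1 at 29.5 to 35.9 and 31.7 to 35.5. The myeloid marker Itgam was lower in KO without overlap (3.98 to 4.35 and 4.76 to 5.05), and Tcf7 (401 to 460 and 363 to 393) and Cd28 were higher. Their part in the Gzmk values was not tested. Of the other genes, Fasl had 10 of 31 peaks with every KO library above every WT library and 1 below. Gzmb had 1 above and 3 below of 10, Gzma 1 above of 6, Crtam 2 below of 6, Prf1 1 below of 7 and Gzmc 1 below of 2.

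**Figure D3:**
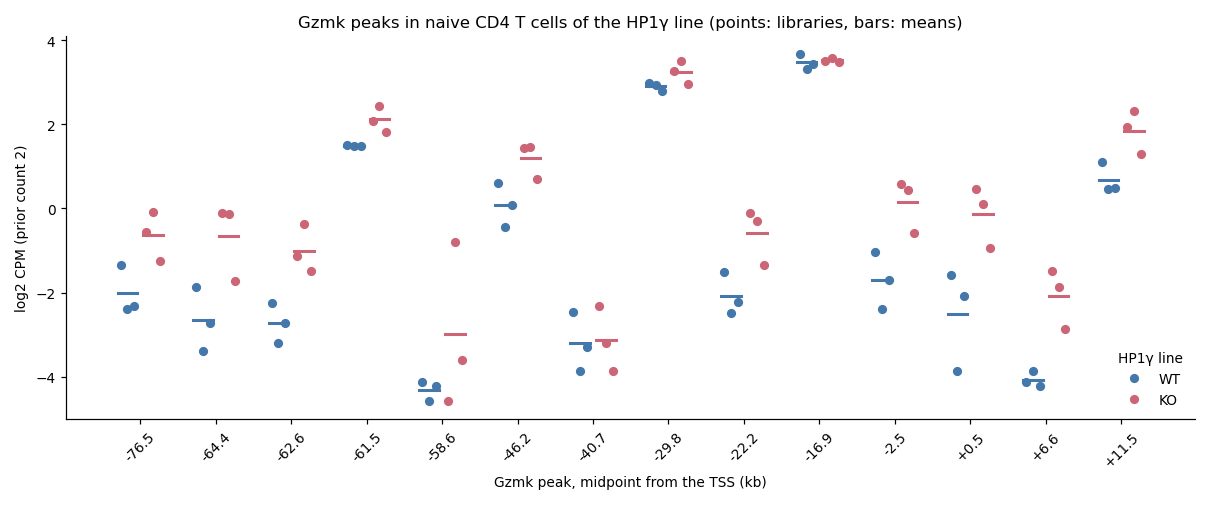
Log2 CPM (prior count 2, y axis) of the 14 Gzmk peaks in HP1γ-line naive libraries, ordered by distance from the TSS in kb (x axis), with WT in blue, KO in red and bars at the means. KO libraries lie above WT libraries without overlap at 10 of the 14 peaks, and not at the other 4.

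In Tconv without Treg, HP1γ KO and WT differed at 1 of the 78 peaks (3.35% of all peaks were called). Gzmk -76459, far upstream, was higher in KO, with 0.975, 1.81 and 1.44 CPM in WT and 1.73, 5.07 and 4.01 in KO libraries (1.35 ± 0.30, edgeR adjusted p = 0.0132). The lowest KO library lay within the WT range, and the call was lost with the earlier edgeR dispersions (adjusted p = 0.0540) and without KO replicate 2, KO replicate 3 or WT replicate 1 (adjusted p 0.0543 to 0.104). Gzmk peaks were above 0 in 11 of 14 and Fasl peaks in 7 of 31, and the 6 Gzma peaks were all below 0, from -0.65 to -0.00. Among promoters the differences ran from -0.71 at Gzmc to 0.05 at Crtam, and none was called. Over the 78 peaks, 17 had an unadjusted p under 0.05, 12 of them lower (19.6% of all peaks had such a p). Ikzf2 was at 48.3 to 56.4 CPM in KO and 31.9 to 42.8 in WT, Cd8b1 at 4.83 to 5.62 and 2.66 to 4.34, and Klre1 at 1.59 to 1.78 and 0.821 to 1.46, all higher in KO without overlap, while Lef1 was lower (109 to 122 and 130.3 to 135). The part of these markers was not tested.

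With Treg, 6 peaks were lower in HP1γ KO than in WT Tconv (5.38% of all peaks were called lower) and 0 were higher by edgeR (6.48% of all peaks), where 8 had an unadjusted p under 0.05 in that direction (18.6% of all peaks), and DESeq2 also called 6 peaks in all (12.3% of all peaks). The 6 were 3 of Fasl, 2 of Gzmb and 1 of Gzma, none at a promoter. Fasl +9230 held 12.8, 16.3 and 10.9 CPM in WT and 5.29, 7.06 and 6.55 in KO libraries (-1.11 ± 0.19, adjusted p = 0.000955). Gzma +10194 held 6.17, 6.32 and 3.38 and 1.12, 1.97 and 2.58 (-1.64 ± 0.31, adjusted p = 0.00159). In both, every KO library lay below every WT library.

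Fasl -12985 held 6.93, 6.75 and 7.33 CPM in WT and 2.21, 3.77 and 2.66 in KO (-1.25 ± 0.25, adjusted p = 0.00257), again without overlap. Gzmb -3963 held 1.44, 2.44 and 0.666 and 0.187, 0.562 and 0.852 (-1.74 ± 0.39, adjusted p = 0.00378), and the highest KO library passed the lowest WT library. At Gzmb -13823 the values were 8.61, 5.78 and 6.09 and 1.33, 4.53 and 2.21 (-1.36 ± 0.37, adjusted p = 0.0159), with no overlap. Fasl +86880 was the weakest, at 0.97, 1.87 and 1.9 and 0.272, 1.0 and 0.559 (-1.25 ± 0.44, adjusted p = 0.0497). With the replicate number as a block, which pairs these libraries, its adjusted p was 0.0501 and 5 peaks were called.

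Only Fasl -12985 and Gzma +10194 of the 6 were called under every alternative that was run. Without KO replicate 1, or without WT replicate 2, 3 peaks were called (Fasl -12985 and Gzma +10194 both times, with Gzmb -3963 and Gzmb -13823 respectively), and without KO replicate 2 the count was 9. No promoter was called, apart from that of Gzmc without WT replicate 1 (-1.04, adjusted p = 0.0459), with differences of -0.36 at Gzma, -0.31 at Gzmb, -0.74 at Gzmc, 0.11 at Gzmk, 0.39 at Prf1, -0.15 at Fasl, 0.28 at Nkg7 and -0.06 at Crtam. Of the 14 Gzmk peaks, 12 were above 0 and none was called (Gzmk -40744 was called lower without KO replicate 2, at -1.11), among them Gzmk -22169 (0.79 ± 0.17, adjusted p = 0.00435, under the fold threshold). Fasl had 8 of 31 peaks above 0 and Gzmb 1 of 10.

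**Figure D4:**
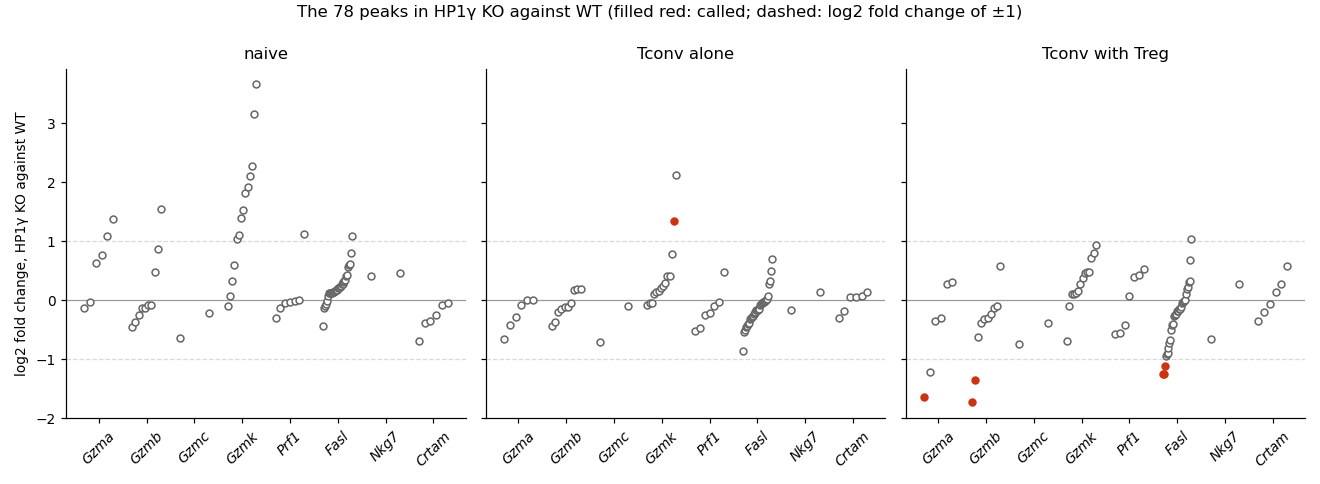
Log2 fold change of HP1γ KO against WT (y axis) for each of the 78 peaks, grouped by gene, in naive cells, Tconv alone and Tconv with Treg. Filled red points are called and dashed lines mark a log2 fold change of 1 in either direction: of the 14 Gzmk peaks, 13 (naive cells), 11 (Tconv) and 12 (Treg added) lie above 0, and the 6 peaks called with Treg belong to Gzma, Gzmb and Fasl.

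**Figure D5:**
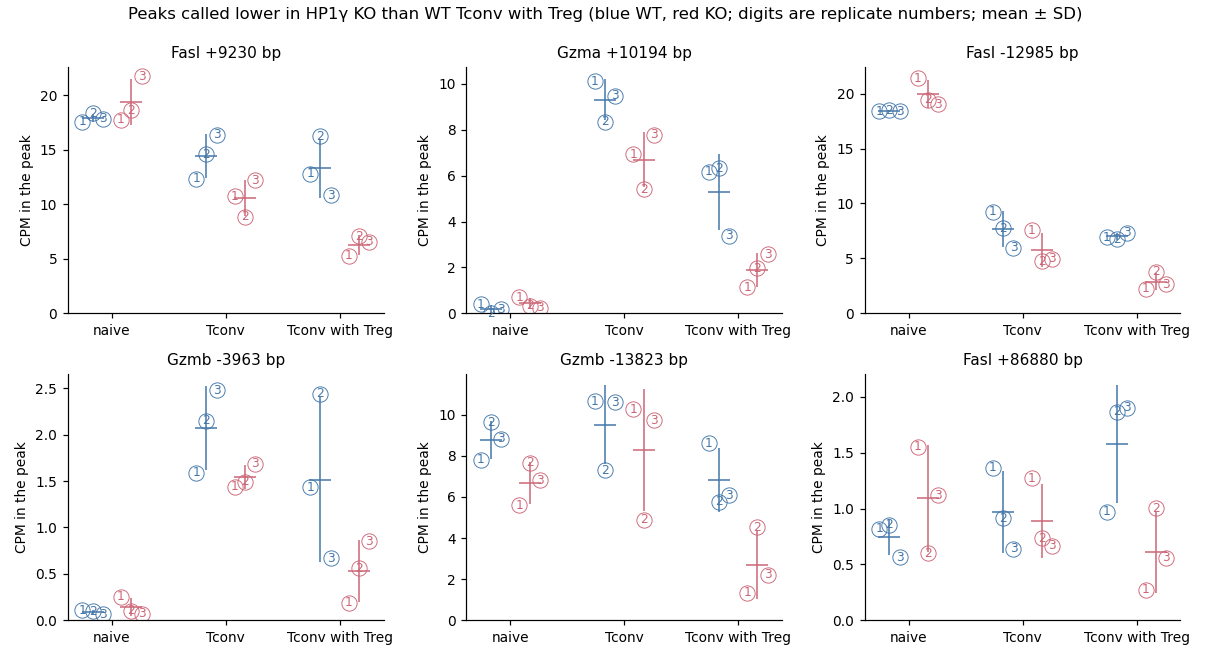
CPM (y axis) of the 6 peaks called lower in HP1γ KO than WT Tconv with Treg, in the 6 HP1γ-line groups, with WT in blue, KO in red, the replicate number inside each point, and mean ± SD. The 4 peaks Fasl +9230, Gzma +10194, Fasl -12985 and Gzmb -13823 show KO libraries with Treg below all WT libraries with Treg.

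Markers differed between HP1γ KO and WT Tconv with Treg as well. Ikzf2 was at 70.7 to 79.9 CPM in KO and 31.3 to 55.6 in WT libraries, Itgam, the only one of 4 myeloid markers with a TSS peak, at 0.902 to 1.28 and 2.05 to 3.09, Klre1 at 0.895 to 1.57 and 1.42 to 1.86, and Cd8b1 at 3.74 to 5.38 and 4.16 to 6.33. The part of these markers in the results was not tested. Of the 5 CD4 T cell markers, Cd4 was higher in every HP1γ KO than in every WT library in all 3 conditions, naive cells included (511 to 669 CPM in KO and 80.3 to 109.6 in WT with Treg), whereas KO and WT libraries with Treg overlapped at Cd3e, Cd3g, Cd5 and Cd28. Only the KO carries Cd4-cre, so a difference at the Cd4 gene itself cannot be told apart from reads of the transgene, which was not tested. Among the transcription factors, 13 of 167 peaks were higher and 18 lower in this comparison (6.48% and 5.38% of all peaks), and the Zfp683 promoter fell by 1.89 (adjusted p = 0.000271). Of the 64 granule peaks, 7 were higher and 1 lower, against the same shares of all peaks.

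The effect of Treg was taken within each line and genotype. HP1α-line WT Tconv with Treg had 5 peaks higher (4.92% of all peaks) and 1 lower (1.84%) than without. Prf1 -246, the promoter that fell on activation, held 9.33, 8.94 and 14.8 CPM without Treg and 29.4, 16 and 18.1 with them (1.47 ± 0.34, adjusted p = 0.014). Prf1 +30314 held 0.929, 3.56 and 2.84 and 12.7, 8.02 and 7.55 (2.82 ± 0.65, adjusted p = 0.0138). In both, all libraries with Treg, the last of which was outside the fit, lay above all without.

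Crtam +10229 rose by 1.72 ± 0.44 (adjusted p = 0.0234), Gzmk -22169 by 1.54 ± 0.41 (0.0267) and Gzmk -46184 by 1.37 ± 0.41 (0.0496), and their libraries with Treg spread widely, at 47.3, 12.3 and 22.9 CPM for Gzmk -46184 against 15.1, 15.1 and 20.1 without. Fasl -12985 fell by 1.80 (0.0300), resting on 25, 2 and 20 reads with Treg. These calls depended on single libraries: 0 of the 6 were called without WT Tconv replicate 1 or without WT Treg replicate 1, 3 without WT Treg replicate 2, and 1 (Prf1 -246) when depth was a covariate. With all 18 libraries 7 peaks were higher (5.64% of all peaks) and 0 lower (2.14%) by edgeR, so that Fasl -12985 was no longer called. Without WT Treg replicate 1, Gzmk -46184 changed sign, to -0.39, and the differences of Prf1 -246 (0.67), Crtam +10229 (0.43) and Gzmk -22169 (0.61) shrank. That of Prf1 +30314 was then 2.19 and that of Fasl -12985 was -2.59, the latter from 2 reads with Treg. This fit leaves a single WT library with Treg. Without WT Tconv replicate 1 that of Prf1 +30314 was 1.80, while that of Fasl -12985 was -1.70 with an adjusted p of 0.117. The libraries with Treg held 1.49 to 12.7 M reads and those without 6.2 to 74.4 M reads, and Ikzf2 stood at 47.6 to 94.1 CPM with and 29.3 to 48.7 without Treg. Cd3e (20.3 to 48.0 and 57.6 to 83.4 CPM), Cd3g (27.8 to 42.4 and 45.6 to 68.5), Cd4 (56.1 to 80.5 and 88.4 to 104) and Tcf7 (172 to 212 and 271 to 309.8) were lower with Treg without overlap. Their part was not tested.

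HP1α KO Tconv showed 0 peaks called with Treg by edgeR (0.548% of all peaks), with 8 at an unadjusted p under 0.05 (8.54%) and 0 called by DESeq2 (0.141%), and with all 18 libraries 0 were called (1.45%), 13 had an unadjusted p under 0.05 (18.9%) and DESeq2 called 1, Gzmb -25693 (1.15%). HP1γ-line WT Tconv likewise showed 0 (0.137% of all peaks), with 15 at an unadjusted p under 0.05, 12 of them lower (20.3% of all peaks), and 1 called by DESeq2, which was Fasl +127390 (3.26% of all peaks). All 6 Gzma peaks and both Gzmc and Nkg7 peaks were below 0 there, at -0.39 for the Gzma promoter, -0.67 for Gzmc and -0.5 for Nkg7. Cd4 (80.3 to 109.6 CPM with and 113 to 119 without Treg), Cd5 (142 to 158 and 162 to 205) and Lef1 (97.6 to 121 and 130.3 to 135) were lower with Treg without overlap, and Ikzf2 overlapped. Their part was not tested.

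HP1γ KO Tconv with Treg had 5 peaks lower (2.06% of all peaks) and 1 higher (6.1%) than KO Tconv alone. This comparison shares the KO libraries with Treg with the one of KO and WT above. Ikzf2 was higher with Treg (70.7 to 79.9 CPM, against 48.3 to 56.4 without), and Klre1 (0.895 to 1.57 and 1.59 to 1.78) and Itgam (0.902 to 1.28 and 1.40 to 3.24) were lower, all without overlap. Their part was not tested. Gzma +10194 fell from 6.93, 5.4 and 7.78 CPM to 1.12, 1.97 and 2.58 (by 1.95 on the log2 scale, adjusted p = 0.000275). Gzmb -13823 went from 10.3, 4.88 and 9.73 to 1.33, 4.53 and 2.21 (-1.68 ± 0.34, adjusted p = 0.00314). In both, every library with Treg lay below every library without.

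Gzmb -3963 fell by 1.68 (0.00441), the intronic Gzma +1244 by 1.64 (0.0081) and Fasl -12985 just past the threshold (0.011), while Fasl +113805 rose by 1.05 (0.0114). Of the 6 calls, those of Gzma +10194 and Gzmb -13823 held under every alternative that was run. Gzmb -3963 was not called without KO Treg replicate 1 (adjusted p = 0.0629) or with the earlier edgeR dispersions (0.0525), nor was Gzma +1244 (0.0989 and 0.0535), which was also lost without KO Tconv replicate 1 (0.071). Fasl -12985 was not called with DESeq2, with loess offsets or without KO Treg replicate 1, KO Treg replicate 3 or KO Tconv replicate 1, and Fasl +113805 not without replicate 3 of either KO group. Fasl -3515 and Nkg7 -2157 lay just short of the fold threshold and were called lower in some alternatives, as was Gzmk -40744 without KO Treg replicate 2. Side by side, in HP1γ-line WT cells the Treg differences of these peaks were -0.74 at Gzma +10194, -0.45 at Gzmb -13823, -0.32 at Gzmb -3963, -1.07 at Gzma +1244, -0.16 at Fasl -12985 and 0.23 at Fasl +113805.

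Whether genotypes differed in their response was tested by interaction terms. For Treg in the HP1γ line, edgeR called 0 of the 78 (0.0014% of all peaks), 14 had an unadjusted p under 0.05, 11 of them lower (12.8% of all peaks), and DESeq2 called 1, Fasl +127390 (1.12%). At Gzma +10194 the interaction was -1.21 ± 0.37 (edgeR adjusted p = 0.299), and at Gzmb -3963 -1.36 ± 0.48 (0.317). For Treg in the HP1α line, 0 were called (0.0461%), 11 had an unadjusted p under 0.05 (10.3%) and DESeq2 called 1, Fasl -12985 (0.295%). With all 18 libraries edgeR called 0 (0% of all peaks), 9 had an unadjusted p under 0.05 (6.93%) and DESeq2 called 0 (0.0517%). For activation, edgeR called 0 in the HP1α line (0% of all peaks), with 4 at an unadjusted p under 0.05 (1.8%) and 0 by DESeq2 (0.0014%). It also called 0 in the HP1γ line (0.014% of all peaks), with 10 at an unadjusted p under 0.05, all lower in KO (9.51% of all peaks), and DESeq2 called 4 (1.93% of all peaks), namely Gzmk -2504, Gzmk +476, Gzmk +6551 and Fasl +113805. Of the 78 peaks, 60 were below 0, with a median of -0.32 against -0.03 over all peaks. At Gzmk -2504 the term was -1.89 ± 0.64 (edgeR adjusted p = 0.373).

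Across the 12 groups, which span 2 lines and 3 conditions, the promoter peaks of Gzmb and Nkg7 followed each other most closely of the 28 pairs of the 8 genes (Pearson's r of mean log2 CPM 0.979), and that of Nkg7 was least like that of Prf1 (-0.892). Among 12542 other genes with a peak at the TSS, the most like Nkg7 were Stk32c (0.999) and Ifng (0.997), the interferon gamma gene. The most like Gzmb were Atp2b4 (0.993) and S100a4 (0.992), the most like Gzmk Plek (0.991) and Pvrig (0.991), and the most like Gzma Slamf7 (0.968) and Oacyl (0.946). For Gzmc they were Furin (0.976) and Fam124b (0.975), for Prf1 Txnrd3 (0.976) and Foxp1 (0.975), for Fasl Ankrd11 (0.982) and Baiap2 (0.981), and for Crtam Acot4 and Gm49366 (0.932 each). Activation separates the groups in most of these, and no test was made.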

How the data were processed

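ATAC-seq libraries were prepared from naive CD4 T cells, Tconv and Tconv with Treg. According to the study's methods and the submitters' processing notes, the authors trimmed reads with Trim Galore 0.6.7, aligned them to GRCm39 (mm39) with BWA, kept mapping qualities of at least 30, removed duplicates, called peaks per sample with HMMRATAC, merged them, and counted reads with featureCounts 2.0.3. The deposited values were raw counts per peak, and neighbouring peaks can share reads. Of 71512 intervals, 3 had no width and were dropped. Peaks were annotated with mouse GENCODE on GRCm39.

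Counts were tested with edgeR 4.0.16 (R 4.3.3, limma 3.58.1; TMM, filterByExpr, quasi-likelihood F test, two-sided, Benjamini-Hochberg adjustment over all peaks tested), 1 fit per line with a mean for each group. For a call, the study's thresholds were kept: 0.05 for the adjusted p and 1 for the log2 fold change in either direction. The scripts were tested on simulated data. Levels are CPM, and log2 CPM with a prior count of 2, after TMM over all 36 libraries, and the means of levels include the 3 libraries left out of the HP1α fit.

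Alternatives were DESeq2 1.42.0, loess offsets, library size alone, no filter on low counts, a replicate block, depth as a covariate, the compared groups alone and each library left out. The earlier edgeR dispersion estimate was added after seeing the data. Named were the promoter peak of each gene and its called peaks (where a gene had more than 3 in a comparison, the 2 of smallest adjusted p in each direction). Gzmk -58614, Gzmk +6551, Gzmb -25693 and Fasl +81325 were named after their values were seen. Values of some marker genes are not reported here. The genes, lists and tests were chosen with earlier results of these data known.

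Libraries share replicate numbers in the labels. Same-numbered libraries deviated together, with every correlation over 0.1, in HP1α KO and WT naive cells (0.247 to 0.500), HP1γ KO and WT Tconv with Treg (0.147 to 0.323) and HP1γ-line WT Tconv with and without Treg (0.202 to 0.286), which was taken as pairing from the data. The depth per library is given with the results, and single-library values carry counting error as well.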

Additional observations from a re-analysis of the deposited data

How the results depend on the processing

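Under the alternatives, the activation counts stayed within 1.5 times of those reported and 0 of their called peaks changed sign. With DESeq2, the number of the 78 peaks called moved from 1 to 0 in HP1α KO against WT Tconv, from 0 to 3 with Treg, from 0 to 10 in HP1γ KO against WT naive cells, from 0 to 1 for Treg in HP1γ-line WT cells and for both Treg interactions, and from 0 to 4 for the HP1γ activation interaction. With loess offsets it moved to 0 in HP1α KO against WT Tconv and to 1 with Treg, with Treg over all libraries, and for Treg in HP1γ-line WT cells. With the earlier edgeR dispersions it was 0 in HP1α and in HP1γ KO against WT Tconv, 4 in HP1γ naive cells and 1 for Treg in HP1γ-line WT cells. With depth as a covariate it was 2 for Treg in HP1α-line WT cells. With the replicate block, the paired comparisons changed by Fasl +86880 alone. Among comparisons that share only numbers, the block gave 0 in HP1α KO against WT Tconv, 2 with Treg, 2 for Treg in HP1α KO, 9 for Treg in HP1α-line WT and 7 in HP1γ KO cells. The cause of these shifts was not tested.

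With each library left out in turn, counts ran from 0 to 1 in HP1α KO against WT Tconv, 0 to 0 with Treg and 0 to 1 there over all libraries (1 without KO Treg replicate 2), 0 to 0 in naive cells of both lines, 0 to 2 in HP1γ KO against WT Tconv (2 without WT replicate 3) and 3 to 9 with Treg. For activation they ran from 43 to 44 and 46 to 49 in WT and from 42 to 45 and 44 to 49 in KO cells of the HP1α and HP1γ lines. For Treg they ran from 0 to 6 in HP1α-line WT, 0 to 1 in HP1α KO (1 without KO Tconv replicate 2), 0 to 1 in HP1γ-line WT (1 without WT Tconv replicate 3) and 4 to 8 in HP1γ KO cells, and all 4 interactions stayed at 0. The fit on the compared groups alone did not test 5 of the values for named peaks, which fell under its filter. Leaving out the single HP1α KO library with Treg in the main fit was not possible. The 38 named peaks gave 9609 values, of which 1 turned a called difference round: Gzmk -46184 for Treg in HP1α-line WT cells, at -0.39 without WT Treg replicate 1. Over all peaks, the share of calls that were higher was 54.6% in HP1γ KO against WT Tconv with Treg, and 68.6% with loess offsets, 49.4% with DESeq2, 45.5% with library size alone and 44.8% with the earlier edgeR dispersions. With loess offsets it moved from 95.0% to 69.4% in HP1γ KO against WT naive cells, from 50.5% to 36.9% in Tconv (61.5% with DESeq2), and from 49.0% to 28.1% for Treg in HP1γ-line WT cells (84.6% with library size alone). It moved with DESeq2 from 72.8% to 53.9% for Treg in HP1α-line WT cells, from 13.4% to 52.8% (2635 calls against 1168) in HP1α KO against WT Tconv with Treg, and from 49.0% to 90.3% (2329 calls against 98) for Treg in HP1γ-line WT cells. Depth limits the HP1α libraries with Treg most, where single calls rest on a few reads.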
